A study of Rattus norvegicus with 6 samples.

Results

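The fibrillar collagen genes are described here in cells of the rat nucleus pulposus, which is the soft centre of the spinal disc, under stretch and without it. They are the 10 genes Col1a1, Col1a2, Col3a1, Col5a1, Col5a2 and Col5a3 of the fibrous types and Col2a1, Col11a1, Col11a2 and Col27a1 of the cartilage types, taken by gene symbol and kept whatever their level, out of 22573 gene rows used. All 10 were present in every library. RNA sequencing gave 3 libraries from cells that were stretched cyclically on a Flexcell system (tensile strain of 18% elongation, 0.2 Hz, 24 h) and 3 control libraries, all from Sprague Dawley rats. The labels carry the stretching protocol on every sample, so the controls are taken as unstretched from their class label alone, and no label says whether replicates were separate cultures or animals. All p-values therefore measure the spread between these libraries, which may be technical.

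Fibrillar collagens are secreted as trimers of long triple-helical chains that assemble outside the cell into banded fibrils. Type I, built from the Col1a1 and Col1a2 chains, is the main collagen of tendon, bone and the outer ring of the disc (the annulus fibrosus). Type III, a trimer of Col3a1 chains, shares fibrils with it in soft tissue, and type V nucleates those fibrils. Type II, a trimer of Col2a1 chains, is the main collagen of cartilage and of the nucleus pulposus, and type XI has the nucleating role there. Type XXVII, from Col27a1, is found in cartilage and its growth zones.

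The values are FPKM, which are corrected for the length of a transcript and the size of a library, which is meant to let levels of different genes be set side by side. The transcript models behind these lengths are not given in the sources used here, and a level set against that of another gene depends on them. The 6 libraries held between 14378 and 14582 rows above 0, and their summed FPKM lay between 308780 and 347508. Across genes, log2 values of libraries of 1 group correlated with a Pearson r of at least 0.9825, and those of different groups with at most 0.9597. On the first principal component, strain replicate 1 (20.6) lay nearer to the controls (-32.7 to -24.1) than the other strain libraries did (28.9 and 35.9). The list of 20 nucleus pulposus and notochord marker symbols held T and Slc2a1 also under a second name each, Tbxt and Glut1. Of the 20 symbols, 16 were in the files and 11 had a mean of at least 1 FPKM. Of these 11 markers 8 rose and 2 fell (limma, adjusted p under 0.05), beside 16.4% rises and 19.0% falls among all tested genes. The 16 markers in the files summed to 12041 to 14365 FPKM under strain and 5299.6 to 5739 FPKM in controls. Nearly all of it was Mgp, the matrix Gla protein gene (11553 to 13779.7 FPKM under strain and 4890.1 to 5274 FPKM in controls). The other markers summed to 487 to 585 FPKM under strain and 408 to 465 FPKM in controls, and the part of these differences in the collagen results was not tested. The notochord factor gene T was between 0.0485 and 0.119 FPKM, the cytokeratin gene Krt19 at most at 0.0710 FPKM, and Shh and Noto were listed at 0 in every library. Other markers of the list were expressed. The cytokeratin gene Krt8 rose, at 6.86 to 11.3 FPKM under strain and 2.85 to 5.40 FPKM in controls. So did the transcription factor gene Foxf1, at 11.7 to 13.6 FPKM under strain and 7.49 to 8.72 FPKM in controls. The 2 falls were Slc2a1 (93.0 to 113 FPKM under strain and 155 to 253 FPKM in controls) and Cdh2 (12.6 to 13.6 FPKM under strain and 17.7 to 18.4 FPKM in controls). Another cytokeratin gene, Krt18, was at most at 0.139 FPKM. The aggrecan gene Acan was present at 35.1 to 41.2 FPKM under strain and 24.2 to 43.3 FPKM in controls.

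Most of the fibrous types and the nucleating chain of type XI were higher under strain, whereas Col1a2 and Col27a1 were not called in either direction. Col2a1 and Col11a2 had means under 1 FPKM and did not enter this test. In a fit without that filter, Col11a2 was not called (limma adjusted p = 0.243). Col2a1 was called higher there (0.0157), a call that was lost with some single libraries left out. Of the 6 fibrous genes 5 rose, and of the 2 cartilage genes that reached a mean of 1 FPKM 1 rose (limma, adjusted p under 0.05). Of all 10180 tested genes, 35.4% were called in either direction, 16.4% as rises and 19.0% as falls. The median log2 difference was 1.02 over the 6 fibrous genes and 0.63 over the 2 tested cartilage genes, beside -0.0123 over all tested genes. After rescaling every library to the same summed FPKM, 57.4% of all calls were rises, against 46.3% in the values as deposited. Of the members that passed the filter, the same 6 were called with that scaling. In these bulk libraries, fewer cells of a type and less RNA per cell cannot be told apart.

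**Figure D1:**
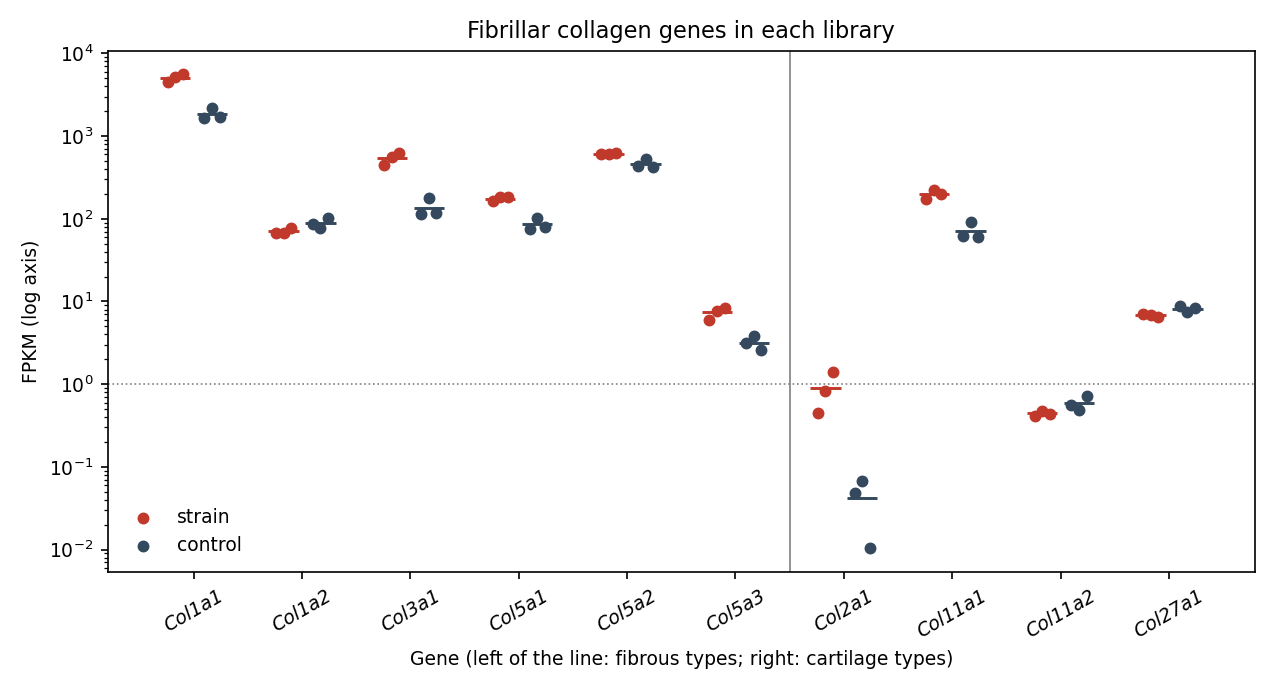
FPKM of each fibrillar collagen gene in each library on a log axis (red, 3 strain libraries; dark, 3 control libraries), with group means as bars and a dotted line at 1 FPKM. Col1a1 stands highest in both groups, Col2a1 and Col11a2 lie at or under the dotted line except for 1 strain value of Col2a1, and the groups overlap in Col1a2.

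Col1a1, which encodes the alpha 1 chain of type I collagen, was at 4519, 5162 and 5575 FPKM in the strain libraries, against 1679.7, 2166 and 1702 FPKM in the control libraries. Every strain value was above every control value, a gap found in 24.0% of all tested genes. The gene rose by 1.46 ± 0.15 on the log2(FPKM + 1) scale (SE from limma, adjusted p = 0.000171), 2.75-fold as a ratio of mean FPKM, and its mean level ranked 3 among all genes under strain and 14 in controls.

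Col1a2, which encodes the alpha 2 chain of the same trimer, did not follow. It was at 66.9, 67.1 and 77.4 FPKM under strain and at 86.9, 76.6 and 103 FPKM in controls, with strain replicate 3 just above control replicate 2. The log2 difference was -0.32 ± 0.12 (limma adjusted p = 0.0676). It passed without control replicate 2 (adjusted p = 0.0346) or without strain replicate 3 (0.0445), lower under strain in both cases. The ratio of Col1a1 to Col1a2 within a library was 67.5, 76.9 and 72.1 under strain, against 19.3, 28.3 and 16.5 in controls. That is a 3.46-fold difference between geometric means, with groups that do not overlap. Whether the low level of Col1a2 beside Col1a1 in all libraries comes from the cells or from the transcript models used for FPKM could not be settled, which limits the reading of this ratio and of the place and share of Col1a2 among the 10 genes. The exact permutation test gave p = 0.1, the smallest that 3 against 3 allows, and 0.1 after adjustment over the 5 ratios compared. Any ratio whose groups do not overlap gets this p. How often ratios of other gene pairs separate was not counted for any of the 5 ratios. Among single tested genes, 51.9% had groups that do not overlap, in either direction.

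A stretch upstream of Col1a2 is shown because this chain alone among the fibrous genes was not called higher. RefSeq promoter windows in GRCr8 matched 7 of the 10 genes, and Col1a1, Col2a1 and Col3a1 had no entry. The 250 bases before the RefSeq start were searched on both strands for TATAAA (the TATA box), CCAAT (bound by NF-Y), GGGCGG (the GC box, bound by SP1) and ACAATG (a SOX-type motif), and overlapping matches were counted. These were held by 12.9%, 34.0%, 30.5% and 11.1% of all 33469 windows in the table. In the Col1a2 stretch, chr4:33518307-33518416 on the plus strand in GRCr8, the capitals mark a reverse-strand CCAAT, 221 to 217 bases before the start, and a TATAAA, 170 to 165 bases before it.
Col1a2: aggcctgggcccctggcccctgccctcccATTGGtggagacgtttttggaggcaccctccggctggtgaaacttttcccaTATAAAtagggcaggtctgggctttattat

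Among the 7 matched genes, TATAAA was found in 1, CCAAT in 3 (Col1a2, Col5a3 and Col11a1), GGGCGG in 5 (Col5a1, Col5a3, Col11a1, Col11a2 and Col27a1) and ACAATG in 0. CCAAT thus stood before 2 genes that rose and 1 that did not, and GGGCGG before 3 that rose and 2 that did not. A match is a string of letters in this window and no evidence of binding. Whether the RefSeq start is where transcription starts in these cells was not tested, so a window may be misplaced and lie partly within the transcript.

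Col3a1, the chain of type III collagen, had the largest difference of the 10 on the log2(FPKM + 1) scale. It was at 448, 563 and 629.5 FPKM under strain, against 114, 177 and 119 FPKM in controls, a 4.0-fold ratio of means. Its log2 difference of 2.01 ± 0.19 (limma adjusted p = 0.000118) ranked 10 from the top among the 10180 tested genes. Relative to Col1a1 the type III chain was also higher: the ratio of Col3a1 to Col1a1 was 0.0991, 0.109 and 0.113 under strain, against 0.0679, 0.0817 and 0.0699 in controls. The groups do not overlap in this ratio (exact permutation p = 0.1).

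The 3 type V genes rose by unequal amounts. Col5a1, the alpha 1 chain that nearly all type V trimers contain, was at 162, 183 and 183 FPKM under strain, against 74.8, 102 and 80.4 FPKM in controls. Its log2 difference was 1.04 ± 0.13 (limma adjusted p = 0.000418). Col5a3, the least abundant of these chains, was at 6.03, 7.62 and 8.45 FPKM under strain, against 3.16, 3.78 and 2.62 FPKM in controls. It rose by 1.0 ± 0.14 on the log2 scale (limma adjusted p = 0.00102). Every strain value of both genes was above every control value, as in 24.0% of all tested genes.

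Col5a2, the alpha 2 chain of type V, was the second most abundant fibrillar collagen transcript in controls. It was at 615, 609 and 619 FPKM under strain, against 439.9, 526 and 429 FPKM in controls, 1.32-fold as a ratio of means. The log2 difference of 0.41 ± 0.11 passed (limma adjusted p = 0.0205), the smallest of the rises. The call was lost without control replicate 1 (adjusted p = 0.0883), control replicate 3 (0.0922), strain replicate 1 (0.0530) or strain replicate 2 (0.0524), and after quantile normalization (0.0544). Col5a2 and Col3a1 are neighbouring protein-coding genes in the GRCr8 gene table.

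Within type V, the ratio of Col5a1 to Col5a2 was 0.263, 0.301 and 0.296 under strain and 0.170, 0.194 and 0.187 in controls, 1.56-fold between geometric means. Col5a1 gained less than the type I chain it shares fibrils with. The ratio of Col5a1 to Col1a1 was 0.0359, 0.0355 and 0.0328 under strain, against 0.0445, 0.0471 and 0.0472 in controls. Neither ratio overlapped between the groups (exact permutation p = 0.1 each).

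**Figure D2:**
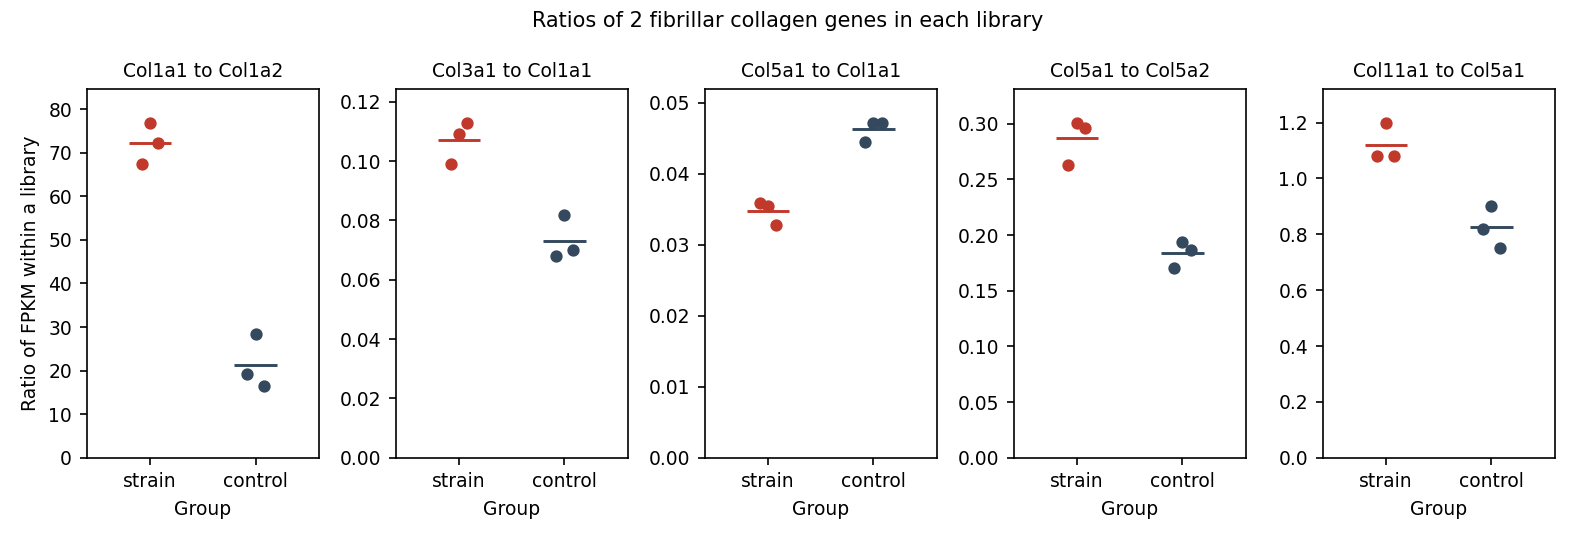
Ratio of the FPKM of 2 fibrillar collagen genes within each library, strain on the left and control on the right of each panel, with group means as bars. Of the 5 ratios, 4 are higher under strain, Col5a1 to Col1a1 is lower, and in none do the groups overlap.

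Among the cartilage types, Col11a1 carried nearly all of the transcript. It encodes the alpha 1 chain of type XI collagen, which can also join type V chains in fibrous tissue. Its level was 175, 220.1 and 199 FPKM under strain, against 61.2, 92.1 and 60.4 FPKM in controls. The gene rose by 1.48 ± 0.17 on the log2 scale (limma adjusted p = 0.000278), 2.78-fold as a ratio of means. Its groups did not overlap, as in 24.0% of all tested genes in this direction. The ratio of Col11a1 to its fibrous relative Col5a1 was 1.08, 1.20 and 1.08 under strain, against 0.819, 0.903 and 0.751 in controls (exact permutation p = 0.1).

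The upstream sequence of Col11a1 is shown as that of the cartilage-type gene that rose. It lies at chr2:204508886-204509135 on the plus strand in GRCr8. Capitals mark 2 reverse-strand CCAAT matches, the nearer 77 to 73 bases before the start, and 3 GGGCGG matches.
Col11a1: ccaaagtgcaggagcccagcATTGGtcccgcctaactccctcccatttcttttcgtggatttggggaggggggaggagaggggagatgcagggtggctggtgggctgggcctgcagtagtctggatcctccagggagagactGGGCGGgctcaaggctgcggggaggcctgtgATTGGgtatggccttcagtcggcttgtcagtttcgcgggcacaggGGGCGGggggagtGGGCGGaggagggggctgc

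Col2a1, the chain of type II collagen, was present at a small fraction of the level of Col1a1. It was at 0.445, 0.838 and 1.41 FPKM in the strain libraries, against 0.0483, 0.0682 and 0.0104 FPKM in the control libraries. The groups do not overlap, as in 24.0% of all tested genes in this direction, and strain replicate 3 was the one library above 1 FPKM. Its mean over the 6 libraries was under 1 FPKM, so it did not enter the main test. In a fit of 16152 genes without that filter, where 10.7% of genes rose, the log2 difference was 0.83 ± 0.17 (limma adjusted p = 0.0157). Its size depends on the scale at such low values: it was 2.71 with a pseudocount of 0.1, above the 2.01 of Col3a1 with that pseudocount. It was 1.66 with every library rescaled to the same, larger sum, where the pseudocount of 1 weighs less. The call was lost without control replicate 1, 2 or 3 (adjusted p = 0.0628, 0.0504 and 0.0604) or strain replicate 2 (0.0513). With no read counts in the files, the number of fragments behind these low values is unknown.

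Col11a2 and Col27a1 had lower values under strain, and neither passed. Col11a2, the alpha 2 chain of type XI, was at 0.416, 0.477 and 0.439 FPKM under strain and 0.556, 0.494 and 0.713 FPKM in controls. Its log2 difference was -0.13 ± 0.07 in the fit without a filter (limma adjusted p = 0.243). Col27a1 was at 7.14, 6.86 and 6.51 FPKM under strain and 8.80, 7.41 and 8.26 FPKM in controls. Its log2 difference was -0.22 ± 0.10 (limma adjusted p = 0.103). The groups do not overlap in either gene. Such a gap, lower under strain, was found in 28.0% of all tested genes, and one in either direction in 51.9%.

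**Figure D3:**
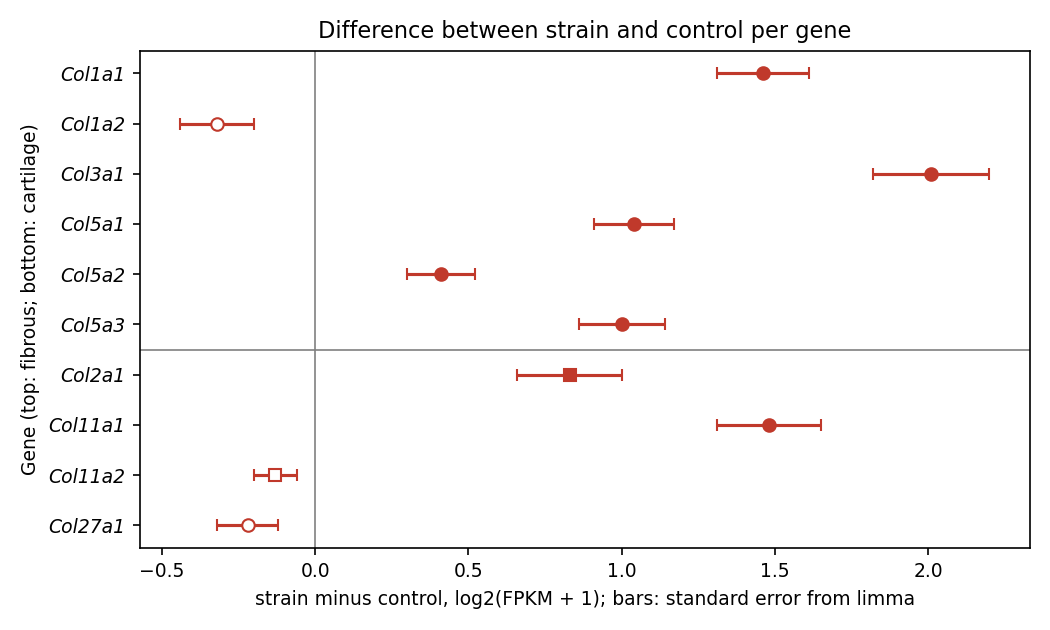
Strain minus control on the log2(FPKM + 1) scale for each gene, with the standard error from limma; filled symbols passed at an adjusted p under 0.05, and squares were fitted without the filter on low values. Col3a1 lies farthest right at 2.01 and Col1a2 farthest left at -0.32.

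The order of the levels was the same for the first 3 genes in both groups and differed below them. Under strain it ran Col1a1, Col5a2, Col3a1, Col11a1, Col5a1, Col1a2, Col5a3, Col27a1, Col2a1 and Col11a2 by mean FPKM, and the ranges overlapped between Col5a2 and Col3a1, Col11a1 and Col5a1, Col5a3 and Col27a1, and Col2a1 and Col11a2. In controls it ran Col1a1, Col5a2, Col3a1, Col1a2, Col5a1, Col11a1, Col27a1, Col5a3, Col11a2 and Col2a1, with ranges that overlapped between Col1a2 and Col5a1 and between Col5a1 and Col11a1. Strain replicate 1 had the lowest strain value in 8 of the 10 genes, and control replicate 2 the highest control value in 7. Without either of these libraries, Col1a1, Col3a1, Col5a1, Col5a3 and Col11a1 were still called, as in all 13 alternatives tried.

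The 10 genes together summed to 5999.5, 6819.6 and 7299.9 FPKM under strain and 2469, 3152 and 2506 FPKM in controls. This was 2.07% ± 0.162 of a library's summed FPKM under strain and 0.805% ± 0.127 in controls (SD, n = 3 each). The fibrous types took 96.9% ± 0.258 of that sum under strain and 97.1% ± 0.214 in controls, so the division between fibrous and cartilage types differed by less than the spread between replicates. Within the sum, Col1a1 took 75.8% ± 0.538 under strain and 68.2% ± 0.439 in controls, and Col3a1 took 8.12% ± 0.591 under strain and 4.99% ± 0.542 in controls. The share of Col5a2 was 9.22% ± 0.923 under strain and 17.2% ± 0.569 in controls, and that of Col1a2 was 1.05% ± 0.0661 under strain and 3.36% ± 0.859 in controls. The ranges of these 4 shares did not overlap between the groups, a gap that 51.9% of all tested genes had in FPKM, in either direction. The shares were not tested.

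**Figure D4:**
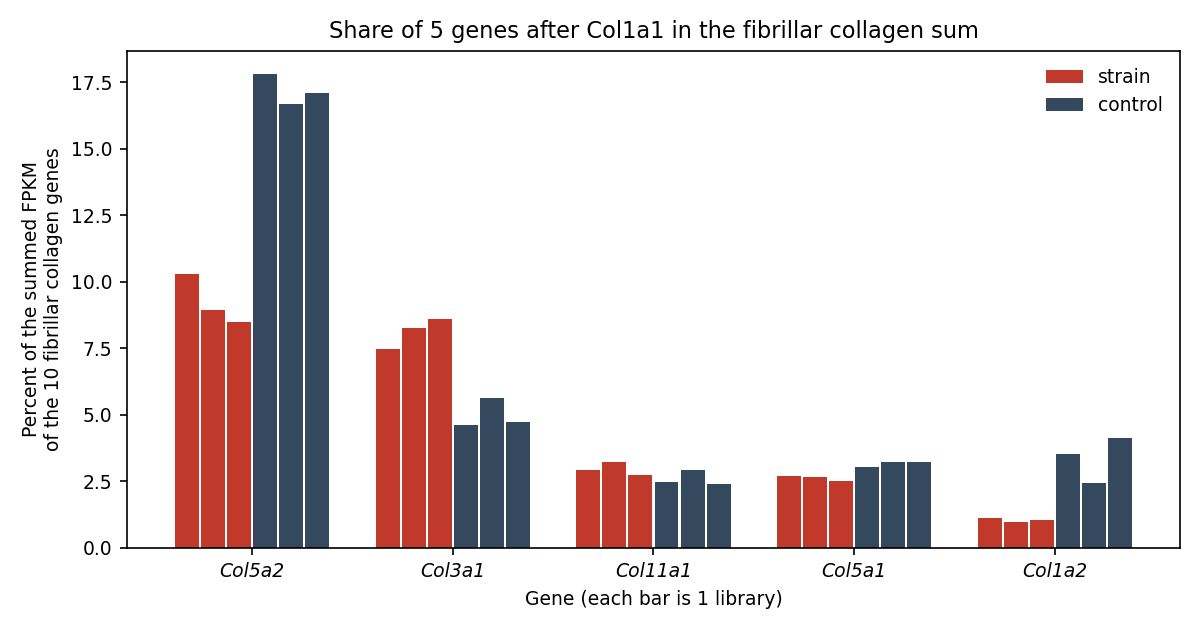
Share of the summed FPKM of the 10 fibrillar collagen genes taken by each of 5 genes, 1 bar per library, strain bars left of control bars. Col3a1 takes more of the sum under strain, and Col5a2 and Col1a2 take less.

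Genes that serve fibrillar collagens were counted in lists, beside 16.4% rises and 19.0% falls among all tested genes. Of 20 tested genes for the folding and modification of procollagen chains in the endoplasmic reticulum, 9 rose and 2 fell (median log2 difference 0.31). Plod2, the lysyl hydroxylase that prepares telopeptide cross-links, rose 2.27-fold to 360.4 ± 25.0 FPKM under strain, against 158 ± 14.2 FPKM in controls (SD, n = 3 each; limma adjusted p = 0.000102). Serpinh1, the collagen chaperone HSP47, rose 1.93-fold, Creb3l1, a transcription factor that activates collagen I genes, 2.17-fold, and the prolyl hydroxylase subunit gene P4ha1 1.69-fold. The 2 falls, named after their values were seen, were other parts of prolyl 4-hydroxylase: P4hb was at 592, 550.0 and 630.0 FPKM under strain, against 929, 736 and 851 FPKM in controls, and P4ha3 at 11.5, 11.9 and 13.6 FPKM under strain, against 18.7, 17.9 and 15.8 FPKM in controls. P4hb lost its call without control replicate 1 (limma adjusted p = 0.06). The prolyl 3-hydroxylase partner gene Crtap was near 0 in every library (0 to 0.474 FPKM).

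Genes that trim the propeptides had 3 rises and 1 fall among 5 tested. The N-proteinase genes Adamts2 and Adamts14 rose 1.75-fold and 1.98-fold, and Pcolce, which enhances removal of the C-propeptide, rose 2.02-fold to 448 ± 86.3 FPKM, against 222 ± 20.3 FPKM in controls. Tll1, a C-proteinase of the BMP1 family, fell to 5.60 ± 1.43 FPKM under strain, against 27.7 ± 2.41 FPKM in controls (limma adjusted p = 4.59e-05). Bmp1 itself, named after its values were seen, was not called (limma adjusted p = 0.886). It was at 28.7 ± 4.12 FPKM under strain and 28.0 ± 0.847 FPKM in controls. Of the 5 lysyl oxidase genes, which cross-link fibrils, 3 rose: Loxl2 (1.93-fold), Loxl3 (1.65-fold) and Lox (1.35-fold). Lox, the most abundant at 1328 ± 148 FPKM under strain and 982 ± 55.6 FPKM in controls, lost its call without control replicate 1 or 3 (limma adjusted p = 0.0998 and 0.0737) or without strain replicate 1 or 2 (0.0805 and 0.0780). Loxl1 was at 49.7 ± 6.12 FPKM under strain and 40.6 ± 3.90 FPKM in controls (limma adjusted p = 0.0782), and it was called higher after quantile normalization (0.0183) and after rescaling (0.0252).

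Genes for proteins that bind the fibril surface mostly rose. Of 9 tested proteoglycan and glycoprotein genes 8 rose and 0 fell (median log2 difference 0.65). Thbs2, which limits fibril growth, rose 3.39-fold, Dcn, a proteoglycan that regulates fibril width, 2.42-fold, Fn1, the fibronectin gene, 1.85-fold, and Prelp, a small leucine-rich proteoglycan, 1.59-fold. Fn1 was at 5179.7 ± 339 FPKM under strain and 2796 ± 255 FPKM in controls. Of 3 tested fibril-associated collagens Col14a1 rose 3.26-fold and Col16a1 1.74-fold. Col12a1 was at 159, 167 and 99.8 FPKM under strain and 115, 129 and 134 FPKM in controls, and it passed only without strain replicate 3 (log2 difference 0.37, limma adjusted p = 0.0155).

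Collagen breakdown and receptor genes had calls in both directions. Among 10 tested genes of degradation and uptake, 3 rose and 5 fell. The collagenase gene Mmp13 was at 556, 335 and 302 FPKM under strain, against 1972, 1260.3 and 2072 FPKM in controls, so it fell by 2.17 ± 0.26 on the log2 scale (SE; limma adjusted p = 0.000426). Timp3, a metalloproteinase inhibitor, fell to 9.55 ± 0.540 FPKM under strain, against 20.7 ± 1.78 FPKM in controls. Cathepsin K (Ctsk) rose 1.99-fold and the collagen uptake receptor gene Mrc2 1.63-fold. Of 6 tested collagen receptor genes, 1 rose and 2 fell, against 16.4% rises and 19.0% falls among all tested genes. The integrin subunit gene Itga11 rose to 67.3 ± 8.86 FPKM, against 23.6 ± 6.01 FPKM in controls, and Itga2 fell to 0.442 ± 0.157 FPKM, against 13.7 ± 3.26 FPKM in controls. The receptor kinase gene Ddr2 fell to 33.8 ± 6.30 FPKM, against 60.5 ± 4.32 FPKM in controls. Itga1 was at 31.7, 32.5 and 12.0 FPKM under strain and 44.5, 52.0 and 51.6 FPKM in controls (limma adjusted p = 0.0686), with its lowest value in strain replicate 3. Without that library it was called lower, with a log2 difference of -0.60 in place of -1.05 (limma adjusted p = 0.00287), and it was also called by limma without trend or robust moderation (0.0361).

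Known regulators of the fibrous genes had 6 rises and 5 falls among 20 tested, against 16.4% rises and 19.0% falls among all tested genes. The tendon factor genes Mkx and Scx rose 3.51-fold and 2.44-fold, and Nfyb, a subunit of the CCAAT-binding factor, rose 2.10-fold. The TGF-beta inhibitor gene Smad7 fell to 12.3 ± 1.54 FPKM, against 18.6 ± 1.26 FPKM in controls. Further genes of this list are named after their values were seen. Nfya, another subunit of the CCAAT-binding factor, fell to 4.71 ± 0.155 FPKM, against 6.38 ± 0.125 FPKM in controls. The subunit gene Nfyc was not called. Sp1 fell to 10.6 ± 1.89 FPKM, against 14.6 ± 0.566 FPKM in controls. Among the TGF-beta genes, Tgfb1 fell, and Tgfb2 and Tgfb3 rose. Regulators of the cartilage genes had 6 rises and 1 fall among 9. Pax1, a sclerotome factor, rose 2.98-fold, the homeobox gene Barx2 5.92-fold (2.25 ± 0.569 FPKM under strain and 0.380 ± 0.0302 FPKM in controls), the growth factor gene Bmp4 2.01-fold, and Sox9, the activator of Col2a1 in cartilage and named after its values were seen, 1.87-fold. The fall was Bmp2, at 15.6, 6.46 and 6.13 FPKM under strain, against 74.4, 58.7 and 70.1 FPKM in controls.

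**Figure D5:**
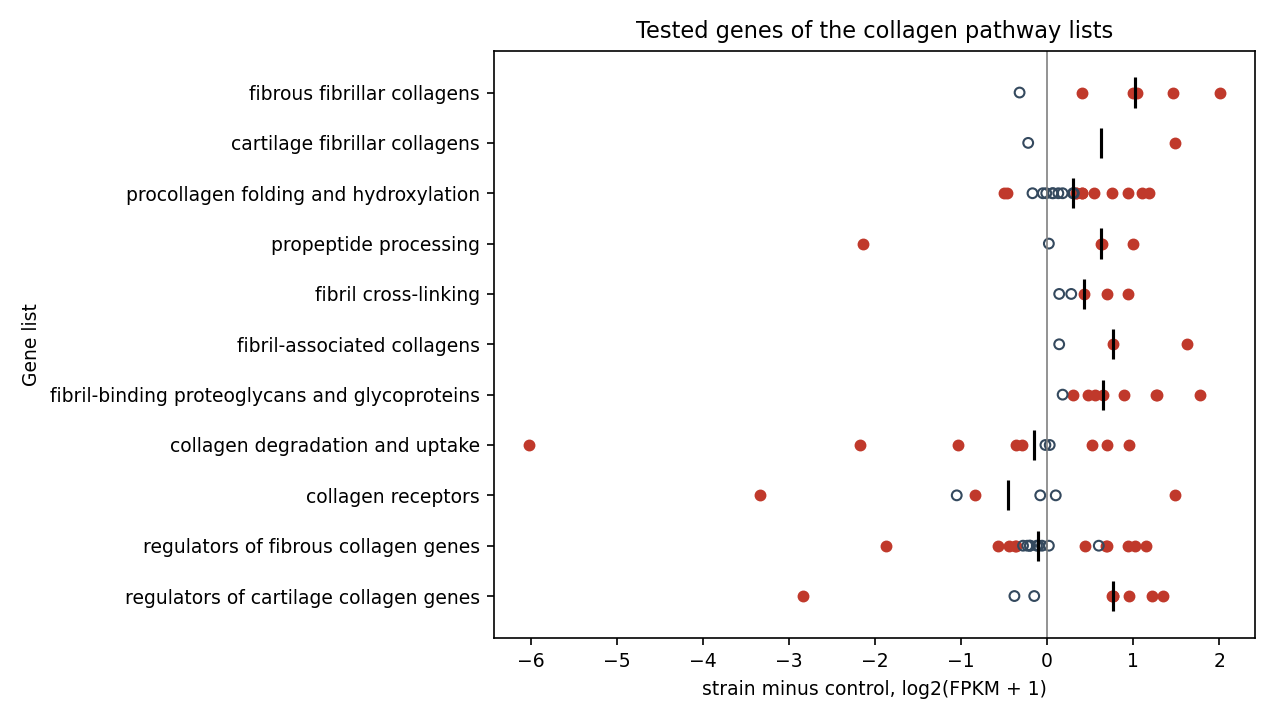
Strain minus control on the log2(FPKM + 1) scale for every tested gene of each list, with the list's median as a black bar; red points passed at an adjusted p under 0.05 and open points did not. All 9 fibril-binding genes lie right of 0, and degradation and receptor genes lie on both sides.

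Markers of other cells that make fibrillar collagen were set beside these results. Among all tested genes, 16.4% rose and 19.0% fell. Fibroblast markers had 3 rises and 2 falls among 8 tested, and their summed level was 2018 to 2682 FPKM under strain and 1451 to 1599 FPKM in controls. Without Vim, the most abundant, the sums overlapped (857 to 1074 FPKM under strain and 959.7 to 1050.2 FPKM in controls). Of that list Pi16 rose 2.99-fold (2.40 ± 0.385 FPKM under strain and 0.803 ± 0.172 FPKM in controls), Vim 2.52-fold and Pdgfrb 1.45-fold. Thy1 and Twist2 fell, and no marker was at 0 in all libraries. Myofibroblast genes had 0 calls among 6 (summed level 1202 to 1852 FPKM under strain and 1024 to 1551 FPKM in controls). Annulus fibrosus and tendon markers had 3 rises and 1 fall among 7 (890.2 to 918 FPKM under strain and 636 to 853 FPKM in controls), with the tendon gene Tnmd listed at 0. The rises were Thbs4 (9.07-fold, 44.6 ± 7.29 FPKM under strain and 4.92 ± 0.924 FPKM in controls), Mkx (3.51-fold) and Scx (2.44-fold). The fall was Egr1 (15.4 ± 4.54 FPKM under strain and 60.6 ± 22.7 FPKM in controls). Without Tnc, the most abundant, the sums overlapped (239.5 to 268 FPKM under strain and 195 to 244 FPKM in controls). Fmod, which was not called, held 146 to 168 FPKM of these sums under strain and 136 to 141 FPKM in controls. Chondrocyte markers had 2 rises and 0 falls among 4 tested (46.9 to 52.9 FPKM under strain and 30.4 to 50.8 FPKM in controls), with Matn1 and Lect1 listed at 0. The rises were Hapln1 (7.53-fold, 1.89 ± 0.363 FPKM under strain and 0.251 ± 0.0149 FPKM in controls) and Sox9 (1.87-fold). Without Acan, the most abundant, the chondrocyte sums did not overlap (10.8 to 11.9 FPKM under strain and 6.10 to 7.41 FPKM in controls). Osteoblast markers had 1 rise, Spp1, and 1 fall, Ibsp, among 3 tested, with a summed level of 2265 to 2530.5 FPKM under strain and 1296 to 1627 FPKM in controls. Spp1 made up nearly all of it, and the other osteoblast markers summed to 15.9 to 39.5 FPKM under strain and 62.1 to 80.4 FPKM in controls. The osteoblast factor gene Sp7 was at most at 0.0547 FPKM, and Sost was listed at 0. Their part in the collagen results was not tested. Skeletal muscle markers had 0 calls among 2 tested (3.98 to 8.76 FPKM under strain and 3.35 to 6.23 FPKM in controls). Blood markers were listed at 0 in every library, endothelial markers summed to at most 0.521 FPKM, and macrophage markers summed to 2.12 to 2.30 FPKM under strain and 3.22 to 7.79 FPKM in controls.

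The genes whose pattern over the 6 libraries was nearest to 3 of the collagens were found by the root mean square difference of centred log2 values, among 5084 tested genes of at least median level. Nearest to Col1a1 were Cyp4b1, Pqlc3, Itga11, Fibin and Vim, with differences of 0.073 to 0.105 log2 units. Nearest to Col3a1 were Olfml2b, Wisp2, Nrep, Eno3 and Net1 (0.117 to 0.184). Nearest to Col11a1 were Itga11, Plxdc2, Col14a1, Cxcl12 and Fndc1 (0.1 to 0.156). Itga11 was at 57.7, 69.0 and 75.2 FPKM under strain, against 18.9, 30.4 and 21.5 FPKM in controls, and stood in 2 of these groups. Among the members themselves the nearest pairs were Col11a2 and Col27a1 at 0.090, Col1a1 and Col11a1 at 0.109, and Col5a1 and Col5a3 at 0.120 log2 units. The first pair depends on the scale, since Col11a2 was at 0.416 to 0.713 FPKM, where the pseudocount of 1 flattens a pattern. Its log2 difference was -0.13 with that pseudocount and -0.33 with a pseudocount of 0.1.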

How the data were processed

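The deposited files, 1 per library, list gene symbols with a value in 22601 rows. These were read as the authors' FPKM, going by their range and by the tools in the submitters' processing notes. Those notes name HISAT2 2.0.4, cutadapt 1.9.3, Cufflinks, Cuffdiff 2.2.1 and DESeq without their order or role. They name 1 build, the human hg19, while the symbols are rat ones (85.1% of 22573 rows used matched the GRCr8 gene table). Strandedness and annotation are not given in the sources used here. FPKM keeps no read totals and low values showed no common step, so the depth is unknown and no counting interval is given. Rows with a date as symbol (27) and 1 broken row were left out.

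The 10180 genes whose mean reached 1 FPKM were tested as log2(FPKM + 1) in limma 3.58.1 (R 4.3.3), with trend and robust moderation, two-sided, with Benjamini-Hochberg adjusted p under 0.05 over all tested genes. Folds without log are ratios of group means, or of geometric means for ratios between genes. The 5 ratios between members were tested with two-sided exact permutation tests. The fit was tested on simulated data. The members, lists and tests were chosen with earlier results of these data known. The text names all members, the 4 tested genes of smallest p of each pathway list, 5 genes nearest to each of 3 members, markers of other cells, and a few genes it marks as chosen after their values were seen. Alternatives were another pseudocount, other filters, other scaling, plain limma, the replicate number as a block and each library left out. Promoter windows came from RefSeq (GRCr8), a build that the processing notes do not name.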

Additional observations from a re-analysis of the deposited data

How the results depend on the processing

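No member changed direction in any alternative, and the 5 ratios between members kept theirs in all 10 tried. The calls of Col1a1, Col3a1, Col5a1, Col5a3 and Col11a1 held in all 13 alternatives, with adjusted p between 8.83e-05 and 0.00594. The count of all genes called higher was 1672, 1071 with a filter at 5 FPKM, where fewer genes were tested, and between 1047 and 1528 with 1 library left out (1047 without control replicate 1). Without a filter on low values, 2 cartilage genes were called in place of 1, since Col2a1 then entered the test. Rises were 46.3% of all calls as deposited, 55.5% after quantile normalization and 57.4% after rescaling. Libraries with the same number did not deviate together (correlations of 0.033, 0.108 and -0.116 across genes), so the numbers were not taken to pair them. With the replicate block 1441 genes were higher and 1675 lower, the fibrous count stayed at 5 and the cartilage count at 1, Col1a2 had an adjusted p = 0.0450 and Lox one of 0.0527, by limma. In the block form of the ratio tests the smallest exact p is 0.25. The depth is unknown, so its limit on low genes such as Col2a1 and Col11a2 was not measured.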

Other observations

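Col24a1, a further fibrillar collagen gene that is expressed in developing bone, lay outside the 10 genes described. It was at 0.142, 0.0137 and 0.0143 FPKM in the strain libraries and 0.0344, 0.0285 and 0.0532 FPKM in the control libraries. The strain values fall on both sides of the control range. The 3 chain genes of type IX collagen, which coats type II fibrils in cartilage, were also low. Col9a1 was at 0.0892, 0.0988 and 0.102 FPKM under strain and 0.0108, 0.0661 and 0.0323 FPKM in controls. Col9a2 was at 0.110, 0.256 and 0.206 FPKM under strain and 0.0232, 0.130 and 0.135 FPKM in controls, with overlapping groups. Col9a3 was at 0.213, 0.213 and 0.484 FPKM under strain and 0.0677, 0.0687 and 0.161 FPKM in controls, and none of the 3 genes passed limma without a filter (adjusted p = 0.0634, 0.209 and 0.0894).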
